A study of Oryctolagus cuniculus with 16 samples.

Results

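The genes described here were those of the cell cycle and of DNA replication. They were chosen by symbol from the table of read counts, and comprised the cyclins CCNA, CCNB, CCND and CCNE, the kinases CDK1 to CDK9, all genes beginning with CDKN, the MCM genes, the centromere genes CENP, the AURK, BUB and PLK kinase and checkpoint genes, E2F1 to E2F8, RFC1 to RFC5, and MKI67, TOP2A, PCNA, TYMS, RRM1 and RRM2. With at least 1 read in at least 1 library required, 74 genes qualified of 13788 symbols in the table, 11925 of which had a count. Apart from this read requirement, expression levels did not enter the rule, although it was set with earlier results of these data known. The symbols AURKAIP1, MCM3AP, CDKN2AIP and CDKN2AIPNL matched only by spelling and do not name cell cycle components. Of the symbols that this rule covers, MKI67, CCND1, CCND2, CDKN1C, CDK9, E2F4, E2F6 and BUB1B were not among the 74 genes and were not analysed here.

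A resting cell enters the cycle when D cyclins bind CDK4 and CDK6, which free E2F factors from retinoblastoma proteins; E2F factors then switch on genes for DNA synthesis. The MCM2-7 ring unwinds DNA, the RFC complex loads the PCNA clamp that holds the polymerase, and ribonucleotide reductase (RRM1 and RRM2) and thymidylate synthase (TYMS) supply nucleotides. Inhibitors named CDKN hold the kinases in check, and cyclin B, CDK1, Aurora and Polo-like kinases and centromere proteins act in mitosis. In a mature artery, most endothelial and smooth muscle cells are in the resting state.

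The tissue came from female New Zealand white rabbits, with intima and media laser-microdissected from frozen sections of the basilar artery (BA) and of its terminal bifurcation, the basilar terminus (BT). Sham surgery was done in rabbits 3 and 4. In rabbits 5 and 6 both common carotid arteries were tied off, an operation that raises flow through the BA, and all 4 were killed 24 h later. Each of the 4 rabbits gave 1 library per layer and location, 16 in all, so each flow group of a tissue held 2 rabbits. Fragments from several sections of 1 animal were combined in each library, and no allele, transgene or drug distinguished the groups. Because the same 4 animals supplied all tissues, the 4 tissues are not independent repeats of the flow comparison.

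Counts on named genes per library were 5211886 to 17686105 in the intima and 2154863 to 11219236 in the media. Values are CPM, in which each count is divided by the TMM-scaled total of its library. On this scale 3 counts, the most that a count of 0 allows at 95% for counting error only, equalled 0.169 to 1.58 CPM, depending on the library. Levels were not divided by gene length, so they are compared between libraries and not between genes. Replicates of a group differed by more than counting error, and between the 2 rabbits of a group the median gene of this set with 10 CPM or more differed by 1.36- to 1.62-fold, against 1.34- to 1.55-fold for all genes. The summed level of 5 endothelial markers was 899 to 3770 CPM in intima and 423 to 1500 CPM in media, and that of the 3 of 5 smooth muscle markers in the table was 10400 to 73800 CPM in intima and 66400 to 117000 CPM in media, so the intimal libraries also held abundant smooth muscle transcripts. Lymphocyte markers (2 of 4 in the table) summed to at most 3.87 CPM and brain markers (3 of 4) to at most 8.23 CPM. In the BT intima, the summed level of the 4 of 5 leptomeningeal fibroblast markers in the table was 3050 and 968 CPM in the sham rabbits and 4.32 and 44.1 CPM in the ligated rabbits, and that of 7 macrophage markers was 753 and 130 CPM against 121 and 55.3 CPM. Nearly all of the ligated macrophage sums was CD14, at 121 and 54.7 CPM against 57 and 58.9 CPM in sham. Of the 6 macrophage markers tested there, 5 were lower with ligation without overlap (25.6% of all genes were). TYROBP, for example, was 290 and 34 CPM in sham and 0 and 0.0823 CPM in ligated rabbits. In the BA media, the leptomeningeal sum was 8720 and 5020 CPM in sham and 2150 and 1700 CPM in ligated rabbits, and the macrophage sum 246 and 170 CPM against 139 and 38.5 CPM. DCN made up most of this leptomeningeal sum, at 6990 and 4380 CPM in sham and 1920 and 1510 CPM in ligated rabbits. Of the 4 markers on that list, 3 were lower with ligation without overlap (26% of all genes were). SLC6A13 overlapped, at 0 and 14.9 CPM against 2.64 and 5.5 CPM. The macrophage sum went the other way in the BT media, at 54.9 and 61.9 CPM in sham and 78.8 and 125 CPM in ligated rabbits. The smooth muscle sum of the BA media was 83600 and 74200 CPM in sham and 101000 and 117000 CPM in ligated rabbits. Of its 3 markers, 1 was higher and 1 lower without overlap. The endothelial sum of the BT intima overlapped between the flow groups (899 and 3770 CPM against 2080 and 2350 CPM), but 4 of its 5 markers were higher with ligation without overlap, 2 of them with an unadjusted p below 0.05 and none passing a q of 0.05, and their median log2 fold change was 1.09. These markers therefore moved with the flow groups of these tissues; their part in the results below was not tested. As the libraries are bulk tissue, fewer cells of a type and less RNA per cell cannot be told apart.

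Detection differed widely between the genes. Of the 74 genes, 22 (29.7%) had more than 3 counts in all 16 libraries, against 5501 (46.1%) of the 11925 genes with a count. The 22 included CDK4, CDK6, CDK7, CDKN1B, MCM3, MCM6, MCM7, PCNA, RFC1, RFC3, RRM1 and BUB3. At the other end, 27 genes had more than 3 counts in 8 libraries or fewer, among them CCNB1, CCNB2, CDK1, CDK2, AURKA, AURKB, BUB1, CENPA, CENPF, E2F1, E2F2, MCM2 and RRM2. MCM5, 1 of the 6 subunits of the replicative helicase, never exceeded 3 counts, and CCNE1, CENPO, E2F1 and RRM2 did so in 1 library each. In these 27 genes a median of 47.2% of all reads came from 1 library, and for 11 of them this was the BT intima of sham rabbit 3. That library also had the most genes with a count of all 16 (10408) and the highest macrophage sum. For 13 of the 27, a single library held over 50% of the reads, so sparse genes are described below by their raw counts.

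**Figure D1:**
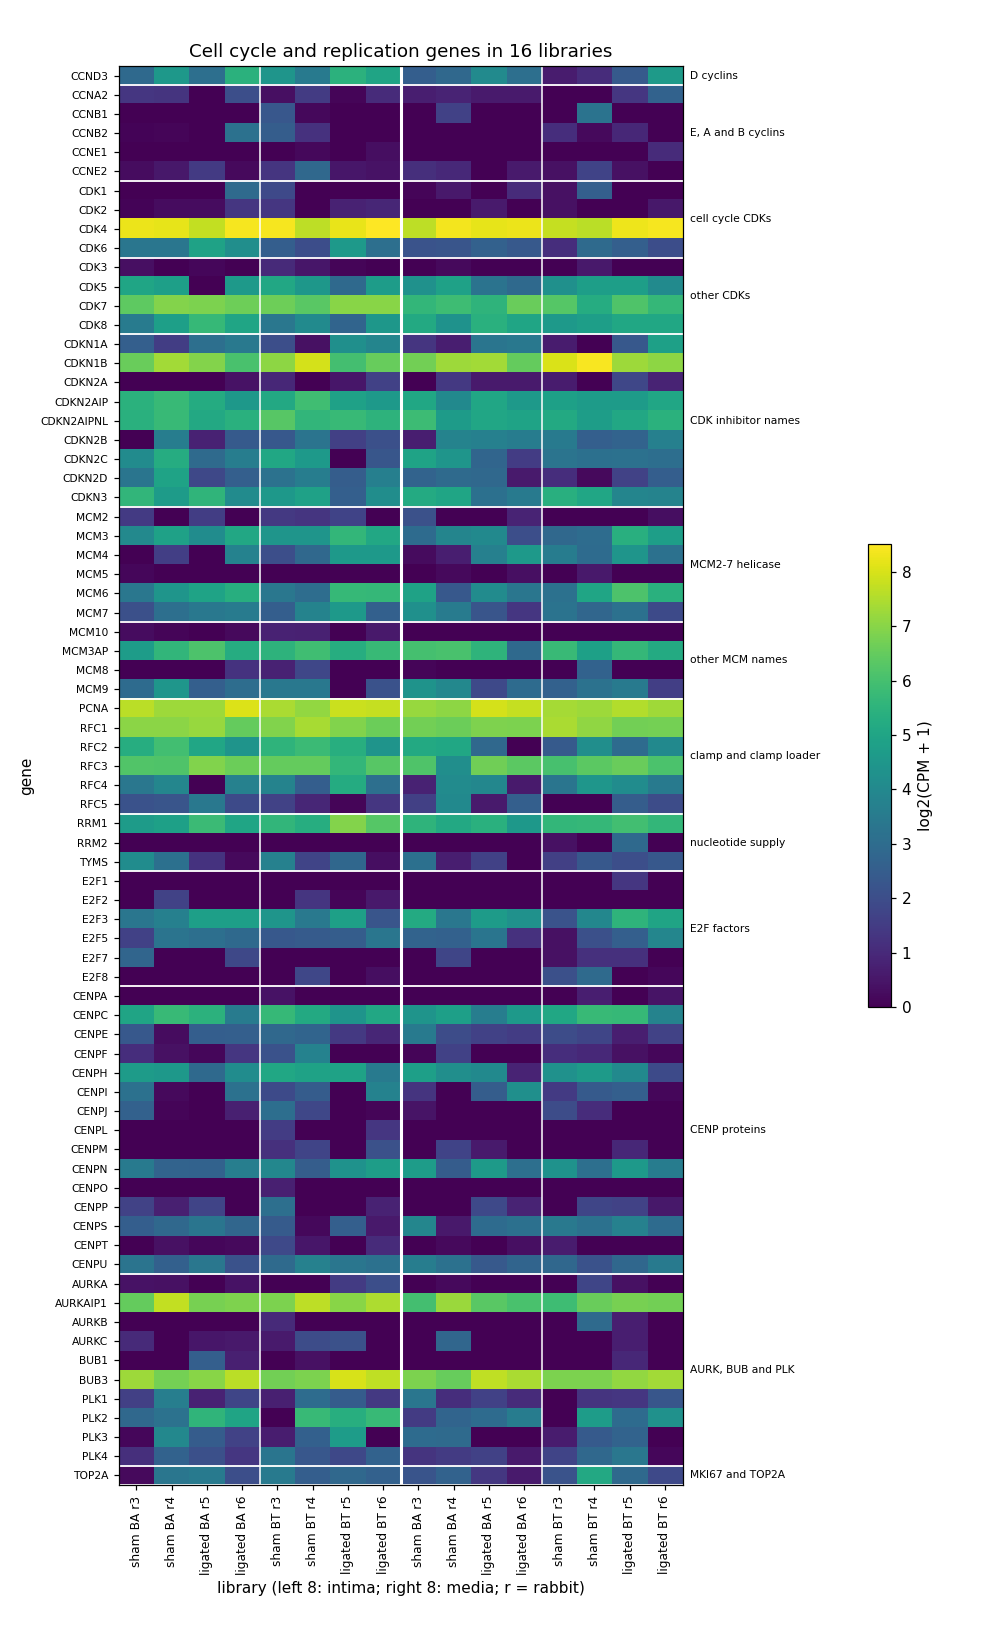
Heat map of the 74 genes (rows, grouped by role) in the 16 libraries (columns, intima at left and media at right), coloured by log2(CPM + 1). CDK4, PCNA, RFC1, CDKN1B and BUB3 were above 60 CPM in every library, whereas most cyclin, E2F and Aurora rows were at or near 0 in most libraries.

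The question of the flow comparison was which genes differed between ligated and sham rabbits 24 h after the operation. No cell cycle or replication gene passed a q of 0.05 (edgeR quasi-likelihood F test, Benjamini-Hochberg adjustment over all genes tested) in any tissue. In the BA intima, 0 of 54 tested were called (0% of all genes were called), 2 had an unadjusted p below 0.05 (5.95% of all genes did) and the smallest q was 0.734. For the BT intima, 0 of 61 were called (0% of all genes), 8 had an unadjusted p below 0.05 (11.6% of all genes) and the smallest q was 0.265. Among 51 tested in the BA media, 0 were called (0.807% of all genes), 6 had an unadjusted p below 0.05 (13.6% of all genes) and the smallest q was 0.113. Finally, 0 of 56 were called in the BT media (2.35% of all genes), 12 had an unadjusted p below 0.05 (16% of all genes) and the smallest q was 0.0959. DESeq2 called 0 for the BA intima (1.36% of all genes) and 2 for the BT intima, MCM6 and CENPF (6.61%). It called 1 for the BA media, MCM4 (5.77%), and 4 for the BT media, CDKN1A, CDKN1B, MCM3 and CCND3 (6.76%). One animal also mattered: in the BT media 3 genes passed without rabbit 3 (CDKN1A, CDKN1B and TOP2A; 7.37% of all genes) and 3 others without rabbit 4 (E2F3, MCM6 and PLK2; 7% of all genes), and in the BT intima 1 passed without rabbit 4 (PLK2; 1.24% of all genes).

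The medians of the set took both signs. The median log2 fold change of its tested genes was 0.05 for the intima of the BA (-0.10 for all genes) and -0.28 for that of the BT (-0.13), and -0.38 for the media of the BA (-0.15) and 0.10 for that of the BT (0.03). Counting genes whose ligated and sham values did not overlap, 11 were higher and 8 lower with ligation in the BA intima, or 20.4% and 14.8% of those tested (15.4% and 20% of all genes). In the BT intima 13 were higher and 18 lower, or 21.3% and 29.5% (20.4% and 25.6% of all genes). The BA media had 11 higher and 14 lower, or 21.6% and 27.5% (21% and 26% of all genes), and the BT media 16 higher and 8 lower, or 28.6% and 14.3% (25.4% and 23.1% of all genes). The share higher was slightly above, and the share lower on either side of, that of all genes. Of 46 genes tested in all 4 tissues, only CDKN1A was higher without overlap in each (292 of 7930 genes, 3.68%, were), and only CENPH lower in each (247 genes, 3.11%).

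CDKN1A, which encodes the CDK inhibitor p21, a target of p53, was higher in the ligated rabbits of every tissue without passing the test. In the intima, its level was 5.02 and 1.94 CPM in the BA of sham rabbits 3 and 4 against 7.67 and 9.92 CPM in ligated rabbits 5 and 6, and 3.11 and 0.293 CPM against 17.8 and 13.8 CPM in the BT. The media had 1.51 and 0.654 CPM against 8.97 and 9.70 CPM in the BA, and 0.581 and 0 CPM against 4.05 and 27.3 CPM in the BT. Every ligated library thus lay above both sham libraries of its tissue, while the ligated BT media libraries differed several-fold from each other. The log2 fold change was 1.32 for the intima of the BA (q = 0.926) and 3.18 for that of the BT (SE 1.37, q = 0.439), and 3.08 for the media of the BA (SE 1.40, q = 0.378) by edgeR. In the BT media the sham libraries held 2 and 0 counts and the ligated 13 and 234, at least a 23.2-fold higher mean (edgeR q = 0.0959). DESeq2 gave q = 0.009 there, and over 10 alternative settings q ran from 0.00278 to 0.798. With BA and BT counts summed per rabbit, so that each animal entered once, the log2 fold change was 2.26 in the intima (SE 0.89, edgeR q = 0.433) and 4.09 in the media (SE 1.12, q = 0.0962).

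CDKN1B, which encodes p27, the inhibitor that keeps resting cells out of the cycle, was the most abundantly counted of the inhibitor genes and lower after ligation at the BT. Its level in the BT media was 263 and 347 CPM in sham and 153 and 133 CPM in ligated rabbits, with no overlap. The BT intima had 134 and 251 CPM against 61.3 and 91.0 CPM, again with no overlap. The log2 fold change was -1.08 in the BT media (SE 0.33, edgeR q = 0.123; q from 0.0201 to 0.587 over 10 alternatives) and -1.34 in the BT intima (SE 0.49, q = 0.381). At the BA the groups overlapped, with 94.7 and 159 CPM against 122 and 66.6 CPM in the intima and 103 and 153 CPM against 160 and 89.6 CPM in the media (log2 fold changes of -0.42 and -0.03). The difference between the BT and the BA in the change with ligation was -1.02 in the media (SE 0.43, edgeR q = 0.418).

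The INK4 inhibitors, which bind CDK4 and CDK6, did not share a direction. CDKN2C (p18) in the intima was 16.1 and 37.7 CPM in sham against 6.71 and 11.3 CPM in ligated BA, and 32.7 and 23.4 CPM against 0 and 3.87 CPM at the BT. Its BA media levels were 29.8 and 20.6 CPM against 5.80 and 1.83 CPM, so ligated values lay below sham in these 3 tissues, whereas the BT media was level at 8.71 and 7.90 CPM against 8.10 and 7.36 CPM. The log2 fold change was -2.75 in the BA media (SE 0.93, edgeR q = 0.248) and -2.56 in the intima summed per rabbit (SE 0.65, q = 0.299). CDKN2D (p19) was lower in the ligated BA intima, at 2.56 and 4.96 CPM against 8.96 and 29.7 CPM (log2 fold change -2.36, SE 1.06, edgeR q = 0.842), overlapped in the BT intima and BA media, and in the BT media was 1.16 and 0.161 CPM in sham against 2.18 and 4.79 CPM in ligated rabbits. CDKN2B (p15) ranged from 0 to 12.9 CPM over the 16 libraries and its flow groups overlapped in all tissues but the BT intima, where it was 4.06 and 8.64 CPM in sham against 2.07 and 3.21 CPM in ligated rabbits. CDKN2A, the neighbouring tumour suppressor, did not exceed 2.49 CPM.

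CDKN3, a phosphatase that acts on CDK2, was lower with ligation outside the BA intima. In the media it was 36.0 and 30.9 CPM in sham against 7.91 and 10.2 CPM in ligated BA, and 40.4 and 31.8 CPM against 13.7 and 13.1 CPM at the BT. The BT intima had 22.3 and 28.3 CPM against 5.01 and 17 CPM, and the BA intima overlapped at 48.0 and 24.4 CPM against 46.2 and 16.4 CPM. In both media the gap between the sham and the ligated values was wider than the difference between the 2 rabbits of either group. The log2 fold change was -1.86 in the BA media (SE 0.67, edgeR q = 0.285) and -1.42 in the BT media (SE 0.63, q = 0.295).

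**Figure D2:**
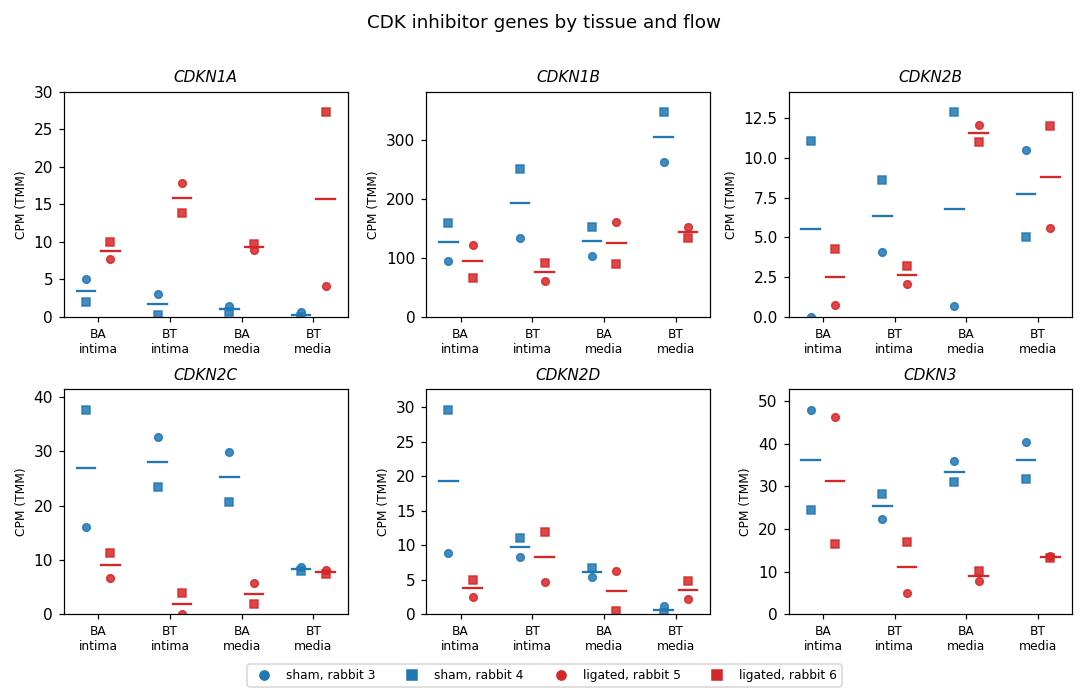
CPM of 6 CDK inhibitor genes in each library by tissue, with sham rabbits in blue and ligated rabbits in red, circles for rabbits 3 and 5, squares for rabbits 4 and 6, and bars for the mean of the 2 rabbits. CDKN1A was higher in both ligated rabbits of every tissue, and CDKN1B was lower in both at the BT, where sham values reached 347 CPM.

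Among the factors that drive G1, CDK4 was high in all libraries, from 196 to 364 CPM. Its partner cyclin D3 (CCND3) was higher with ligation without overlap in 3 of 4 tissues. In the BT media CCND3 was 0.581 and 1.13 CPM in sham and 4.36 and 24.0 CPM in ligated rabbits, or 2 and 7 counts against 14 and 205 (log2 fold change 4.00, SE 1.32, edgeR q = 0.156, and 0.0481 to 0.85 over 10 alternatives). It was 20.6 and 10.1 CPM against 43.0 and 30.5 CPM in the BT intima and 4.81 and 6.38 CPM against 15.8 and 7.60 CPM in the BA media. Its BA intima groups overlapped, with 6.59 and 22.2 CPM against 7.67 and 42.4 CPM. CDK4 itself was 215 and 196 CPM in sham and 313 and 339 CPM in ligated BT media (log2 fold change 0.68, SE 0.31, edgeR q = 0.312), and its groups overlapped in the other tissues. CDK6 was 9.07 and 9.12 CPM against 29.1 and 17.6 CPM in the BA intima and 4.87 and 3.07 CPM against 23.2 and 7.58 CPM in the BT intima. CDK2, the kinase of cyclins E and A, did not exceed 1.56 CPM, and its partner CCNE1 did not exceed 1.05 CPM and CCNE2 6.30 CPM.

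The helicase subunits MCM6, MCM4 and MCM3 had the lowest p of the replication genes in the BT intima, BA media and BT media, respectively. MCM6 in the BT intima was 9.27 and 7.32 CPM in sham and 51.2 and 50.4 CPM in ligated rabbits, with the replicates close together (log2 fold change 2.61, SE 0.56, edgeR q = 0.265). DESeq2 gave q = 0.00201, and q ran from there to 0.568 over 10 alternatives. MCM6 was also higher without overlap in the BT media, at 8.13 and 31.1 CPM against 69.8 and 41.0 CPM (log2 fold change 1.49, SE 0.67, edgeR q = 0.303), and in the BA intima, at 9.36 and 20.5 CPM against 29.4 and 39.5 CPM. The BA media overlapped, at 28.9 and 4.09 CPM against 16.4 and 9.17 CPM.

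MCM4 in the BA media was nearly unread in sham rabbits, at 0.189 and 0.654 CPM (2 and 4 counts), and had 12.1 and 22.8 CPM in ligated rabbits (23 and 87 counts). The log2 fold change was 5.39 (SE 1.29, edgeR q = 0.113), DESeq2 gave q = 0.00156, and the highest q of 10 alternatives was 0.859. At the BT, MCM4 in the intima was 3.11 and 6.30 CPM against 23.3 and 22.6 CPM (log2 fold change 2.30, SE 0.86, edgeR q = 0.389), while the media overlapped at 11.0 and 6.94 CPM against 20.6 and 7.95 CPM. The change in the media differed between locations by -4.88 (BT minus BA, SE 1.69, edgeR q = 0.259). In the BA intima only sham rabbit 4 and ligated rabbit 6 had reads of it, 2.02 and 12.8 CPM.

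MCM3 in the BT media was 6.39 and 7.10 CPM in sham and 40.2 and 26.1 CPM in ligated rabbits (log2 fold change 2.30, SE 0.71, edgeR q = 0.128, and 0.0446 to 0.547 over 10 alternatives). It was 20.8 and 20.9 CPM against 49.1 and 33.3 CPM in the BT intima, and both BA layers overlapped, at 15.2 and 28.5 CPM against 16.6 and 33.2 CPM in the intima and 6.79 and 13.7 CPM against 15.3 and 3.15 CPM in the media. MCM7 was lower in the ligated BA media, at 18.2 and 10.6 CPM against 3.69 and 1.57 CPM (log2 fold change -2.47, SE 1.11, edgeR q = 0.373). In the BA intima its ligated values lay above the sham ones, at 9.58 and 10.6 CPM against 3.27 and 7.70 CPM (0.89, q = 0.969). The remaining subunits MCM2 and MCM5 were at most 3.3 and 0.484 CPM. Of the 5 subunits tested in the BA intima, 2 were higher without overlap and 0 lower (15.4% and 20% of all genes), of 5 in the BT intima 3 and 0 (20.4% and 25.6%), of 5 for the BA media 1 and 1 (21% and 26%) and of 4 for the BT media 2 and 0 (25.4% and 23.1%). None passed a q of 0.05.

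PCNA was abundant throughout and higher with ligation in 2 tissues. It was 147 and 132 CPM in sham and 247 and 218 CPM in ligated BA media (log2 fold change 0.76, SE 0.34, edgeR q = 0.37), and 171 and 140 CPM against 225 and 217 CPM in the BT intima. The BA intima (196 and 154 CPM against 154 and 267 CPM) and BT media (163 and 153 CPM against 186 and 158 CPM) overlapped. RFC loads this clamp onto DNA. RFC1, the large subunit, ranged from 88.8 to 173 CPM. RFC2 was lower with ligation without overlap in 3 tissues, most widely in the BA media, at 6.33 and 0 CPM against 35.2 and 32.6 CPM, or 12 and 0 counts against 373 and 199 (log2 fold change -3.53, SE 1.39, edgeR q = 0.319). RFC5 had 0 counts in both sham BT media libraries and 15 and 25 in the ligated, at least 5.60-fold higher.

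RRM1, the large subunit of ribonucleotide reductase, was highest in the ligated BT intima. There it was 47.6 and 38.1 CPM in sham and 120 and 75.2 CPM in ligated rabbits (log2 fold change 1.2, SE 0.48, edgeR q = 0.416). The BA intima had 24.5 and 27.7 CPM against 55.4 and 31.0 CPM, and both media overlapped within 22.3 to 60.1 CPM. RRM2, the small subunit that is made in S phase, had 21 counts in the BT media of ligated rabbit 5, 1 in that of sham rabbit 3 and 0 in the other 14 libraries. TYMS differed strongly between animals: in the BA intima it was 16.5 and 7.77 CPM in sham and 1.38 and 0.171 CPM in ligated rabbits (log2 fold change -3.90, SE 1.5, edgeR q = 0.795), and in the BT intima rabbits 3 and 5 (12.3 and 6.22 CPM) lay above rabbits 4 and 6 (2.34 and 0.247 CPM).

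**Figure D3:**
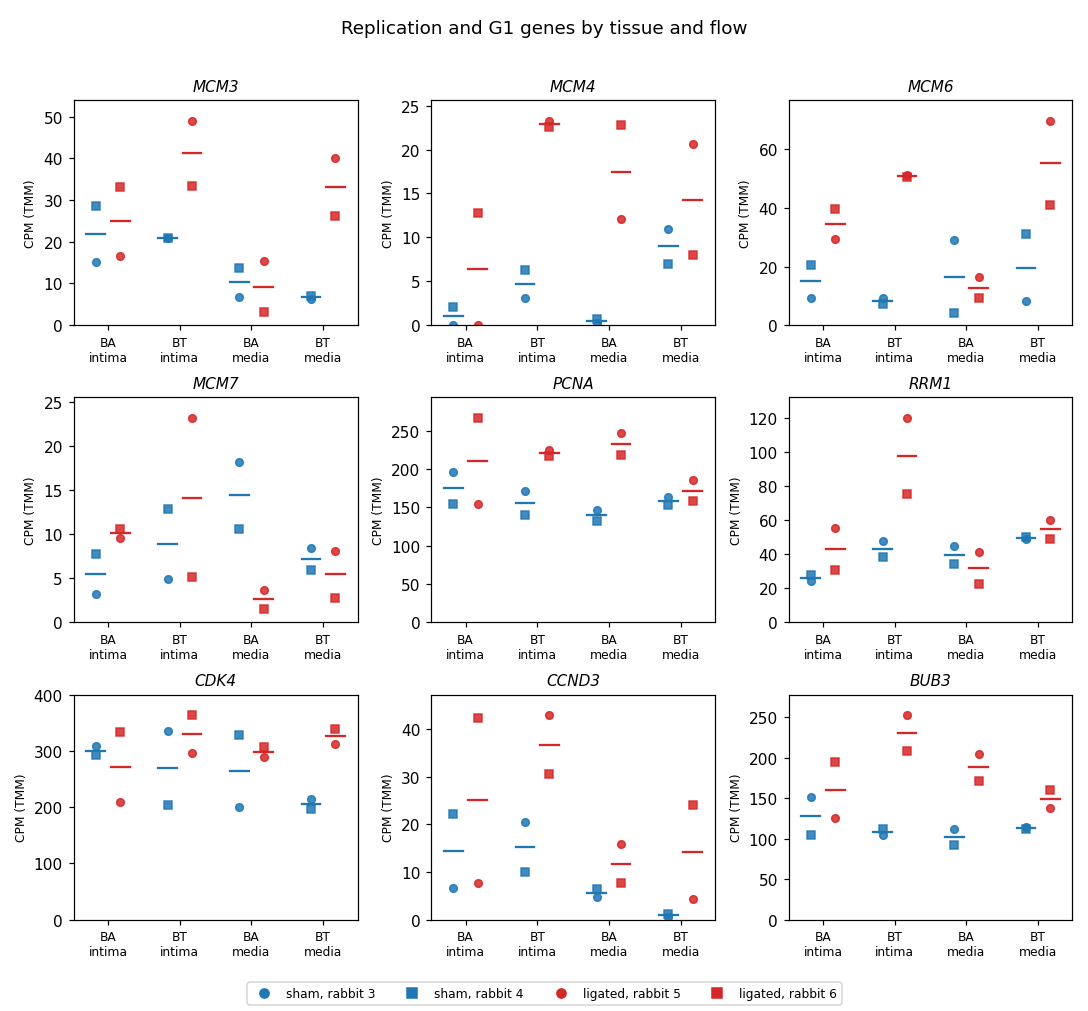
CPM of 9 replication, G1 and checkpoint genes in each library by tissue, with sham rabbits in blue and ligated rabbits in red, circles for rabbits 3 and 5, squares for rabbits 4 and 6, and bars for the mean of the 2 rabbits. MCM6 and MCM4 in the BT intima and MCM3 in the BT media show ligated rabbits above both sham rabbits, while in the BA media MCM6 overlapped and MCM7 was lower at 3.69 and 1.57 CPM.

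Of the E2F factors, E2F3, an activator of S phase genes, was the best detected. It was 3.49 and 14.4 CPM in sham and 45.8 and 30.1 CPM in ligated BT media (log2 fold change 2.07, SE 0.77, edgeR q = 0.204), and 9.13 and 12.2 CPM against 27.2 and 26.7 CPM in the BA intima. It overlapped in the BT intima (20.9 and 9.81 CPM against 27.8 and 3.71 CPM) and the BA media (36.2 and 9.32 CPM against 24.3 and 18.9 CPM). E2F8, an atypical repressor, had 11 and 42 counts in sham BT media and 0 and 1 in ligated, at least a 7.76-fold lower mean with ligation. E2F1 had 5 counts in the BT media of ligated rabbit 5 and none elsewhere.

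Among the centromere genes, CENPH, a subunit of the inner kinetochore, was lower with ligation in all tissues. In the intima it was 24.4 and 22.3 CPM in sham against 6.50 and 16.6 CPM in ligated BA and 32.8 and 29.1 CPM against 28.9 and 10.4 CPM at the BT, the last pair being separated by little. The media had 27.1 and 17.3 CPM against 15.3 and 0.786 CPM at the BA and 18.6 and 24.0 CPM against 15.6 and 2.80 CPM at the BT. Both media were also separated by little. The nearest values were 17.3 against 15.3 CPM at the BA (106 and 29 counts) and 18.6 against 15.6 CPM at the BT (64 and 50 counts). The value of 0.786 CPM was 3 counts. The lower of the ligated rabbits was rabbit 5 in the BA intima and rabbit 6 in the other tissues, and in none of the 4 tissues was the unadjusted edgeR p below 0.05 (log2 fold changes of -1.02, -0.65, -1.5 and -1.23). CENPF, a kinetochore protein of G2 and M phase, had 50 and 87 counts in sham BT intima and 0 and 0 in ligated, at least a 31.8-fold lower mean (edgeR q = 0.293, and 0.00441 to 0.631 over 10 alternatives). CENPJ, a centriole protein, had 109 and 17 counts against 0 and 1 there, at least 19.5-fold lower. Of the CENP genes tested, 1 of 9 was higher and 1 lower without overlap in the BA intima (15.4% and 20% of all genes). In the BT intima 1 and 5 of 13 were (20.4% and 25.6% of all genes). The media had 2 and 4 of 10 at the BA (21% and 26%) and 1 and 3 of 9 at the BT (25.4% and 23.1%).

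Polo-like kinases and BUB genes serve partly outside mitosis. PLK2, a serum-inducible kinase of G1, had the lowest p of the set in the BA intima, at 6.31 and 8.30 CPM in sham and 46.0 and 30.5 CPM in ligated rabbits (log2 fold change 2.39, SE 0.73, edgeR q = 0.734; 0.0655 to 0.889 over 10 alternatives). At the BT the sham rabbits disagreed, with 0 CPM in rabbit 3 and 51.7 CPM in rabbit 4 of the intima and 0 and 25.0 CPM in the media, against 39.1 and 52.5 CPM and 6.86 and 18.6 CPM in the ligated. A count of 0 in 2 libraries of rabbit 3 stood beside 112 and 19 counts in its BA libraries. PLK3, which responds to stress, had 0 counts in both ligated BA media libraries against 73 and 41 in the sham, at least 5.74-fold lower (edgeR q = 0.237), and it ranged from 0 to 24.8 CPM elsewhere. BUB3, a checkpoint protein that also takes part in splicing, was 104 and 112 CPM in sham and 253 and 208 CPM in ligated BT intima (log2 fold change 1.1, SE 0.39, edgeR q = 0.367) and 112 and 91.8 CPM against 205 and 172 CPM in the BA media (0.90, SE 0.36, q = 0.325). It was higher without overlap in the BT media too, at 114 and 112 CPM against 138 and 160 CPM, and overlapped in the BA intima.

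**Figure D4:**
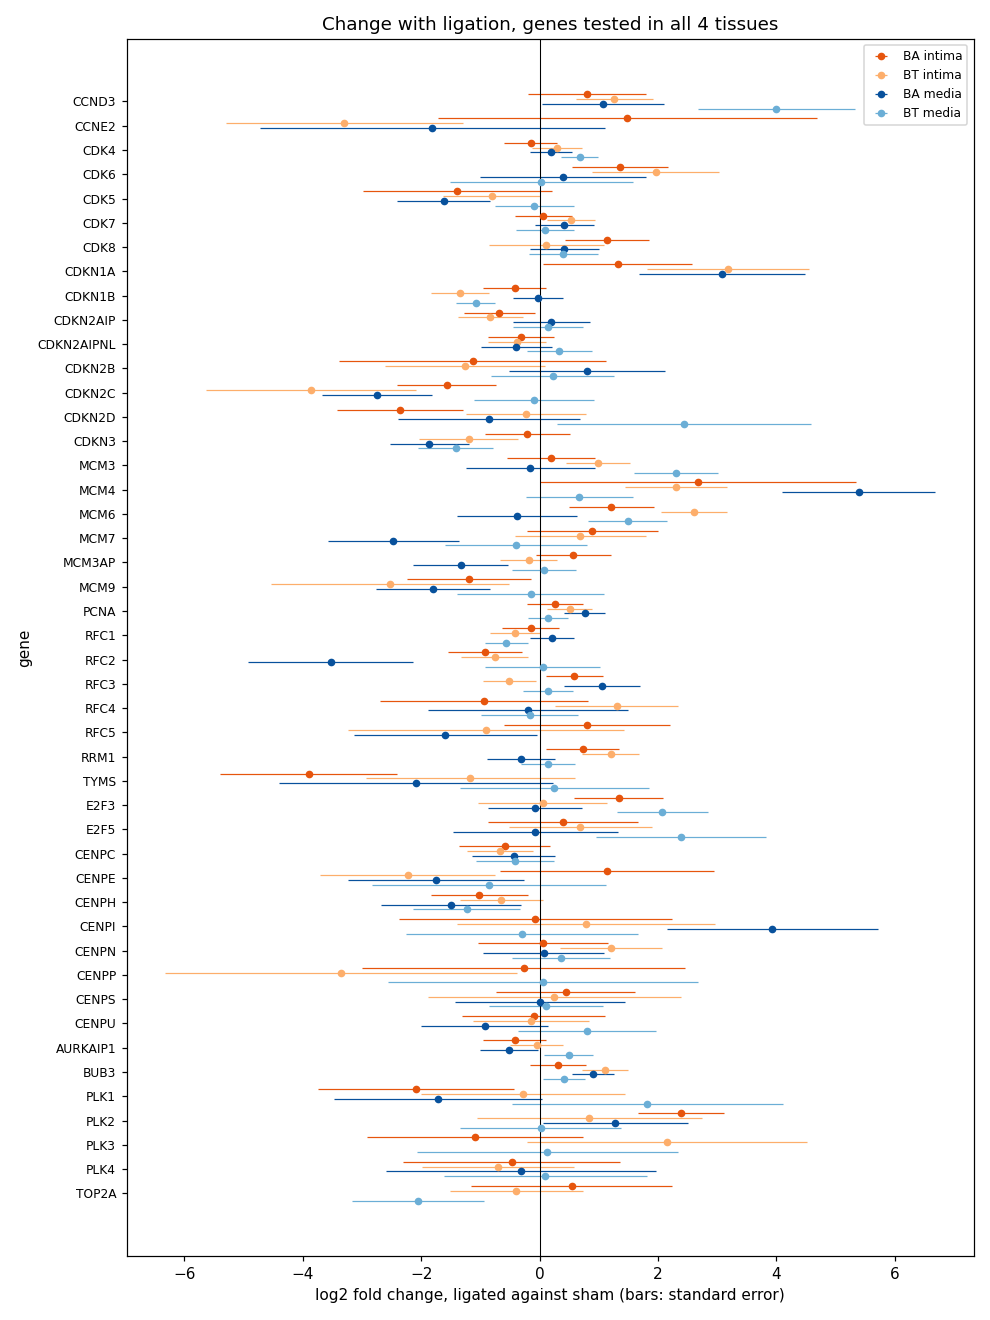
Log2 fold change of ligated against sham rabbits (points) with its standard error (bars) for the 46 genes tested in all 4 tissues, coloured by tissue. Left out are changes where a flow group had at most 3 counts per library and the other's mean exceeded the level of 3 counts. CDKN1A, MCM4, CCND3 and BUB3 lay above 0 and CDKN3, CENPH and CDKN2C below 0 in each tissue drawn, and none of these changes passed a q of 0.05.

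Genes used in G2 and mitosis gave scattered reads. A group of 13 was chosen after their values were seen (CCNA2, CCNB1, CCNB2, CDK1, AURKA, AURKB, BUB1, CENPA, CENPE, CENPF, PLK1, PLK4 and TOP2A). Of these, 3 to 11 had more than 3 counts in a library, and their summed level was 5.50 to 68.4 CPM. The highest sums were those of sham BT media rabbit 4 (68.4 CPM, 10 of 13 genes) and sham BT intima rabbit 3 (42.6 CPM, 11 of 13 genes), while the same layers of the other sham rabbit gave 11.3 and 37.8 CPM. The 28 other mitotic genes with a count, taken from outside the set, summed to 156 to 283 CPM, with 273 and 283 CPM in the BT media of sham rabbits 3 and 4. Most of these last sums came from 3 genes. SMC4, CKS1B and SMC2 gave 85.4, 74.1 and 39.2 CPM in rabbit 3 and 79.4, 53.1 and 39.2 CPM in rabbit 4. The lowest sums of the 13 genes were those of the ligated BA media, at 8.44 CPM in rabbit 5 and 5.50 CPM in rabbit 6, whose libraries also had low totals (2154863 and 4277023 counts). Other libraries with low totals gave higher sums, 22.8 CPM in ligated BT media rabbit 5 (3350190 counts) and 11.3 CPM in sham BT media rabbit 3 (3978419 counts). The part of library size was not tested.

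In the BT media of sham rabbit 4, CCNB1 (cyclin B1) had 52 counts, CDK1 31, AURKB (Aurora B) 41 and TOP2A (topoisomerase II alpha, made in dividing cells) 211. The BT intima of sham rabbit 3 had 59 counts of CCNB1, 69 of CCNB2, 39 of CDK1 and 153 of TOP2A. In no other library did cyclin B1 exceed 13 counts, and in none of the 8 ligated libraries did it have a read. The ligated BA intima of rabbit 6 had 47 counts of CCNB2 and 39 of CDK1 with no CCNB1, and that of rabbit 5 had 47 counts of BUB1, a spindle checkpoint kinase. Against 0 counts of BUB1 in both sham BA intima libraries, the ligated mean was at least 14.5-fold higher (edgeR q = 0.842). It came mostly from rabbit 5, as rabbit 6 had 4 counts. The ligated mean of CDK1, from rabbit 6 alone, was at least 17-fold higher. TOP2A ranged from 0.169 CPM to 34.0 CPM, and sham and ligated values were separated only in the BA media, at 3.58 and 5.40 CPM against 1.58 and 0.524 CPM, where the ligated libraries held 3 and 2 counts. PLK1 was 0 to 11.4 CPM and AURKA 0 to 3.13 CPM, the latter with 21 and 38 counts in the ligated BT intima and 0 in the sham, at least 7.70-fold higher.

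**Figure D5:**
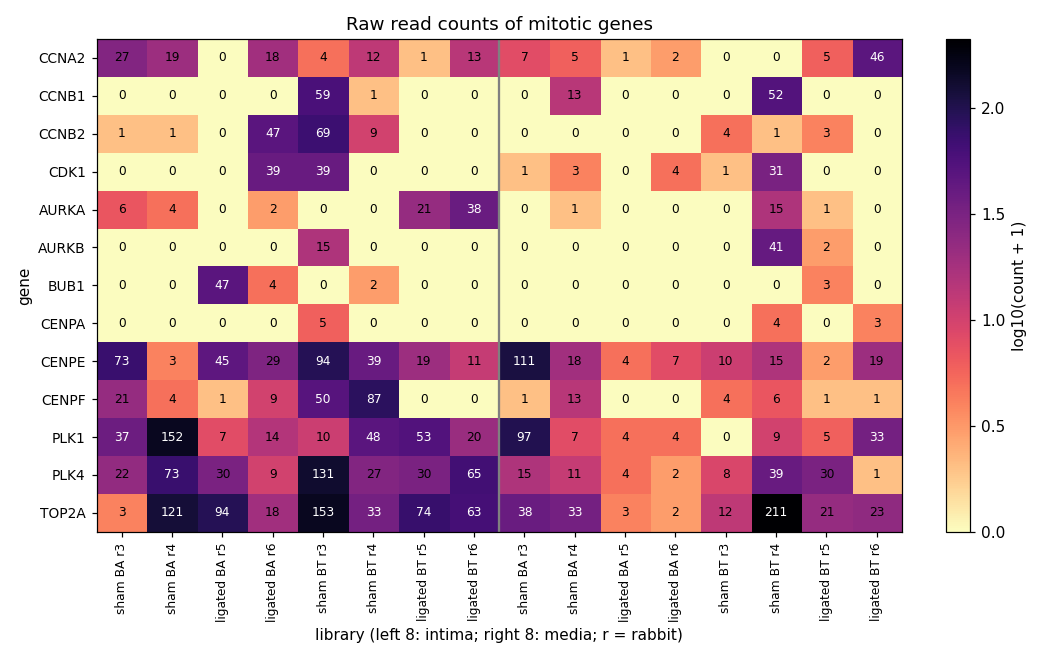
Raw read counts of the 13 genes of G2 and mitosis (rows) in the 16 libraries (columns, intima at left and media at right), with the count written in each cell and colour giving log10(count + 1). CCNB1 and AURKB were read mainly in the BT intima of sham rabbit 3 and the BT media of sham rabbit 4, and TOP2A reached 211 counts in the latter.

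The layers were compared within the 4 rabbits, with rabbit as a block. The set made up 0.164% to 0.233% of the counts on named genes in the intimal libraries and 0.13% to 0.175% in the medial ones. By edgeR, 0 of 53 genes tested at the BA passed (0.499% of all genes) and 4 had an unadjusted p below 0.05 (12.4% of all genes), while 0 of 61 passed at the BT (1.86% of all genes) and 8 had an unadjusted p below 0.05 (14.4% of all genes). DESeq2 called 0 at the BA, where it called 7.5% of all genes, and 6 at the BT (CCND3, CDKN1B, RFC2, CDK7, CENPS and AURKAIP1), where it called 11.2% of all genes. Median log2 fold changes of intima over media were 0.56 at the BA (0.05 for all genes) and 0.34 at the BT (0.08). Positive values were held by 40 of the 53 at the BA, or 75.5% (52.6% of all genes), and by 38 of the 61 at the BT, or 62.3% (53.6% of all genes). By the same test, 1 of 5 endothelial markers was higher in the intima at the BA and 2 of 5 at the BT, and 2 of 3 smooth muscle markers were lower at the BT. At the BA, 7 genes of the set were higher and 1 lower in the intima of all 4 rabbits. These were 13.2% and 1.89% of those tested (11.9% and 10.5% of all genes). At the BT 9 were higher and 3 lower, or 14.8% and 4.92% (13.9% and 12% of all genes).

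CDK7, the kinase that activates other CDKs and also serves the general transcription factor TFIIH, was higher in the intima of all 4 rabbits at both locations. At the BA its mean was 105 CPM in intima and 61.2 CPM in media (log2 fold change 0.83, SE 0.30, edgeR q = 0.317), and at the BT 108 CPM against 58.7 CPM (0.92, SE 0.28, q = 0.155). The 8 intimal libraries lay between 78.9 and 128 CPM and the 8 medial ones between 37.9 and 93.0 CPM, so the pooled ranges overlapped slightly. CDK6 was higher in the BA intima of all 4 rabbits (16.2 CPM against 4.18 CPM, log2 fold change 1.79, SE 0.66, q = 0.327). CCND3 had means of 26.1 CPM in intima and 7.51 CPM in media at the BT (2.9, SE 0.87, q = 0.153) and RFC2 40.1 CPM against 11.0 CPM (1.98, SE 0.59, q = 0.154), both higher in 4 of 4 rabbits. PLK2 was higher in the BA intima of 4 of 4 rabbits (22.8 CPM against 6.35 CPM, 1.63, SE 0.61, q = 0.329).

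In the opposite direction, CDKN1B was lower in the BT intima of all 4 rabbits, with means of 134 CPM against 224 CPM in the media (log2 fold change -0.82, SE 0.24, edgeR q = 0.146). At the BA its log2 fold change was -0.22 (q = 0.779). CDKN2B was lower in the BA intima of all 4 rabbits, with means of 4.02 CPM against 9.18 CPM (-2.35, SE 1.2, edgeR q = 0.482). CDK8, a kinase of the Mediator complex, was likewise lower in the BT intima of all 4 rabbits (13.1 CPM against 28.6 CPM, -1.26, SE 0.51, q = 0.309), as was CENPS (2.49 CPM against 9.30 CPM, -2.75, SE 1.17, q = 0.334). None passed by edgeR.

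The question of the location comparison was where the BT differed from the BA within an animal. In the intima 0 of 59 genes passed (0.011% of all genes; edgeR, DESeq2 also 0) and 1 had an unadjusted p below 0.05 (3.83% of all genes), and in the media 0 of 53 (0.0227% of all genes; DESeq2 0) and 1 (5.28% of all genes). The one in the intima was RRM1, higher at the BT in 4 of 4 rabbits, with means of 70.2 CPM against 34.6 CPM (log2 fold change 0.95, SE 0.28, edgeR q = 1). The one in the media was CDKN1B, higher at the BT in 3 of 4 rabbits, with means of 224 CPM against 126 CPM (0.76, SE 0.27, edgeR q = 0.846). Its sham BT media libraries, at 263 and 347 CPM, were the highest of the 16. In the intima, 2 genes were higher and 4 lower at the BT in all 4 rabbits. These were 3.39% and 6.78% of those tested (5.75% and 6.13% of all genes). In the media 3 were higher and 0 lower, or 5.66% and 0% (7.31% and 6.69% of all genes). MCM4 was higher in the BT than in the BA intima of 4 of 4 rabbits (13.8 CPM against 3.71 CPM, log2 fold change 3.87, SE 1.82, edgeR q = 1), and CDK6 and CDK8 were lower in 4 of 4 (means of 9.69 against 16.2 CPM and of 13.1 against 29.7 CPM, q = 1 for both).

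Whether the change with ligation differed between locations or layers was tested as an interaction, with rabbit as a block. No gene of the set passed in any of the 4 tests by edgeR, and none was called by DESeq2. DESeq2 gave no q for some genes, among them MCM4, RFC2, RFC5 and MCM3AP between locations in the media. It could not call these genes. Unadjusted p-values below 0.05 numbered 1 of 63 genes for BT against BA in the intima (0% of all genes passed, 3.44% had such a p) and 6 of 61 in the media (0.502% passed, 9.07% had such a p). For intima against media there was 1 of 58 at the BA (0% and 2.44%) and 0 of 62 at the BT (0% and 4.84%). The 6 in the media were MCM4, RFC5, RFC2, MCM3AP, CDKN1B and MCM3, the difference (BT minus BA) being negative for MCM4 and CDKN1B and positive for the other 4. RFC2 differed by 4.60 (SE 1.79, edgeR q = 0.355) and MCM3 by 2.71 (SE 1.27, q = 0.517). Leaving out rabbit 6 brought 3 genes past the threshold in the intima (RFC4, CDK5 and CDKN2C; 1.84% of all genes passed). In the media, leaving out rabbit 4 brought 3 (MCM6, E2F3 and MCM4; 2.05% of all genes), rabbit 3 brought RFC3 (1.9%) and rabbit 5 RFC2 (1.17%).

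Partners of these genes outside the set were tested in the same flow comparisons, in which edgeR called 0% of all genes in both intimal tissues, 0.807% for BA media and 2.35% for BT media, and 5.95% to 16% had an unadjusted p below 0.05. Of 22 further replication genes in the table (origin recognition, GINS, polymerase and RPA genes), 16 to 18 were tested in a flow comparison, and 0 passed by edgeR, with 0 to 2 at an unadjusted p below 0.05. The 30 further mitotic genes had 17 to 20 tested and 0 passing by edgeR, with 0 to 3 at such a p. The 9 genes of the retinoblastoma and DREAM complexes that hold E2F targets silent were all tested in each tissue, and 0 passed by edgeR, with 0 to 2 at such a p. Their median log2 fold changes were -0.26 and -0.42 for the BA and BT intima and -1.15 and -0.48 for the BA and BT media. Of 8 genes linked to p53-driven arrest, 6 or 7 were tested and 0 passed by edgeR, with at most 1 at such a p. Their median log2 fold changes were -0.09 and -0.29 for the BA and BT intima and 0.76 and 0.54 for the BA and BT media. DESeq2 called NCAPH of the mitotic list at the BT in both layers and TFDP2 and BTG2 of the last lists in the BT intima. All were lower with ligation there. BTG2, of the p53 list, was 801 and 518 CPM in sham and 97.2 and 181 CPM in ligated rabbits. DESeq2 called 6.61% of all genes in the BT intima and 6.76% in the BT media. It called 0 of these partner genes in the remaining flow comparisons. FOXM1 and MYBL2, the transcription factors of the G2 and M phase genes, had 0 counts in all 16 libraries.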

How the data were processed

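RNA was measured in 16 libraries, 1 for each combination of layer and location in each of 4 rabbits. The authors used SMART-Seq v4 amplification and Nextera libraries with single reads, STAR alignment to OryCun2.0, and featureCounts 1.6.2 on Ensembl exons for reads mapped uniquely, in its reverse-stranded mode, although the kit keeps no strand. The files they deposited hold unnormalized read counts by gene symbol. No molecular identifiers were used, so counting limits cover counting error only. An entry without a symbol (13.8% to 18.7% of counts) was left out, and all 16 columns were used. Levels are TMM-scaled CPM.

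Tests were made with edgeR 4.0.16 in R 4.3.3 (quasi-likelihood F test, legacy form, TMM) over all genes with a mean above 1 CPM in at least 1 group, with Benjamini-Hochberg adjustment and a q threshold of 0.05. The study filtered on RPKM; gene lengths were not used here. Flow was compared between different rabbits, 2 against 2, per tissue. Layer, location and interaction fits held rabbit as a block, since the samples of a number came from 1 animal; the correlation of same-rabbit deviations from group means was -0.0305 to 0.409. DESeq2 1.42.0 and other settings were alternatives. DESeq2 gave some genes no q, and it could not call these. Folds against groups with at most 3 counts in each library were computed against 3 counts per library and are lower bounds. Scripts were tested on simulated data.

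The members, gene lists and tests were chosen with earlier results of these data known. Named genes were those past the threshold or, where none passed, the 3 with the smallest p in each direction, plus a fixed list of well-known cell cycle genes. The lists were 13 roles of the members, 4 pathway lists outside them, and 7 lists of cell type markers; the red cell list (1 of 3 genes in the table) summed to 0 to 717 CPM. Of the 74 genes, 71 were matched in a RefSeq gene table of another assembly, where 16 share their span with another protein-coding gene (among those named above AURKA, AURKAIP1, CCNE2, CDK8, CENPO, PLK1, PLK3 and RFC4). Their counts may be affected by how reads in the shared span were assigned, which was not tested. No coordinates or sequences were used here. Figures were drawn with matplotlib in Python.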

Additional observations from a re-analysis of the deposited data

How the results depend on the processing

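With 2 rabbits per flow group, no cell cycle gene passed a q of 0.05 in the main tests, while the alternatives gave 0 to 6. Keeping all genes with a count gave 1 in the BT intima (MCM6; 3.12% of all genes), 2 in the BA media (MCM4 and RFC2; 4.89%) and 1 in the BT media (CDKN1A; 5.32%). DESeq2 gave 2, 1 and 4 there, and 6 for intima against media at the BT. Leaving out 1 rabbit in turn, where the lone sample of a group is assumed to vary like the others, gave 0 to 1 in the BT intima, 0 to 3 in the BT media, 0 to 3 for the difference between BT and BA in the intima and 0 to 3 in the media. Scaling by library size alone or by RLE, the edgeR version 4 form and summing BA and BT per rabbit (added after seeing the data) gave 0 in every comparison they were run in. The fits without rabbit as a block gave 0 for both layers, both locations and all 4 interactions. The causes of these differences were not tested.

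Of the fold changes of named genes, 381 values with 1 rabbit left out and 592 under other alternatives kept direction and side of the threshold, 6 and 15 passed the threshold, and 18 and 5 changed sign. Those that changed sign were log2 fold changes with ligation whose unadjusted edgeR p was 0.344 or higher in the main test. Leaving out 1 rabbit in turn gave, in the BA intima, -0.02 to 0.63 for BUB3, -0.51 to 0.14 for CDK4, -1.16 to 0.39 for CDKN3, -0.38 to 0.69 for MCM3, -6.75 to 9.11 for MCM4 and -0.17 to 0.60 for PCNA. In the BT intima it gave -0.05 to 0.71 for CDK4. For the BA media the ranges were -0.12 to 0.58 for CDK4, -0.50 to 0.31 for CDKN1B, -1.68 to 0.57 for MCM3, -1.19 to 1.65 for MCM6 and -0.81 to 0.05 for RRM1, and for the BT media -0.17 to 1.2 for MCM4 and -0.02 to 0.28 for RRM1. Summed per rabbit, CDK4 was 0.11 against its BA intima value, and MCM3 1.56, MCM6 0.97 and RRM1 0.10 against their BA media values. CDKN2C in the BT media was 0.05 under scaling by library size alone.

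The limits are few animals, low counts and mixed tissue. With 2 against 2, the same 4 rabbits in all tissues and 0.169 to 1.58 CPM per 3 counts, absent reads of mitotic genes do not show absent transcripts. The library with the lowest total (2154863 counts, ligated BA media rabbit 5) bounds what that tissue can show. Leptomeningeal, macrophage, endothelial and smooth muscle markers moved with flow in some tissues, the macrophage sum in both directions. DCN, of the leptomeningeal fibroblast list, passed as lower with ligation in the BA media (edgeR q = 0.0481) and the smooth muscle marker MYH11 in the BT media (q = 0.0221). The part of these markers in the results was not tested.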
